A study of Drosophila melanogaster with 2 samples.

Results

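The 10 genes described here encode subunits of the machinery that licenses chromosomes for replication: all 6 subunits of the MCM helicase (Mcm2, Mcm3, dpa, Mcm5, Mcm6 and Mcm7) and 4 of the 6 subunits of the origin recognition complex, ORC (Orc1, Orc2, Orc5 and Orc6). They were chosen by gene name in the deposited annotation, and all 10 had a row in the deposited expression table of 19391 loci. The gene dpa, disc proliferation abnormal, encodes the Mcm4 subunit. The remaining ORC subunits, Orc4 and lat (the gene for Orc3), are given beside the members.

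The table held 1 female and 1 male RNA-seq library of Drosophila melanogaster. Each was made from polyadenylated RNA of whole adults aged 3 to 5 days, with 200 ng of total RNA taken from each of 192 inbred lines, those of the Drosophila Genetic Reference Panel, and mixed before library preparation. The flies of both sexes were reared at 25 °C on the same medium, no treatment is named, and the libraries shared 1 lane of paired 100-nt reads. By its title the study asked how genetic differences between the lines shape the transcriptome, while these pools show only the average of the lines in each sex. With 1 library per sex there is no replicate error, no test was possible, and each difference describes these libraries.

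ORC binds origins of replication and, with Cdc6 and Cdt1, loads the MCM ring around DNA before S phase. The ring becomes the active replicative helicase when Cdc45 and the GINS complex join it. In adult flies much of the DNA synthesis takes place in the ovary, where germline cells divide, nurse cells and follicle cells become polyploid, and follicle cells amplify the chorion genes at origins that need ORC and MCM proteins. The mature egg also stores replication proteins and their transcripts for the rapid divisions of the early embryo.

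All 10 genes were higher in females, and no male value reached any female one. From here on the libraries are called females and males. The female values ran from 23.3 to 112 FPKM (fragments per kilobase of transcript per 1e6 sequenced, so that levels can be set side by side between genes) and the male values from 1.25 to 6.44 FPKM. The lowest female level was thus 3.61 times the highest male level. Sex difference was measured as log2((female FPKM + 1)/(male FPKM + 1)), which understates the difference of genes with low values, and a locus was counted at 2-fold, a log2 ratio of 1. On this scale the members ran from 2.55 to 4.98, with a median of 4.09.

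The 14108 loci that reached 1 FPKM in either library were tested, of which 3034 (21.5%) were at least 2-fold higher in females. A further 5743 (40.7%) were higher by as much in males, and the median log2 ratio of all loci was −0.58. All 10 members were at least 2-fold, and also at least 4-fold, higher in females, against 7.6% of all loci at 4-fold. Of all 6 ORC subunits, which add Orc4 and lat, 5 passed 2-fold and 4 passed 4-fold. At 16-fold the count was 5 of 10 members (Mcm2, Mcm3, Mcm5, Mcm7 and Orc1), against 0.744% of all loci. With equal sums 8 members passed 16-fold, against 1.39% of all loci, and with ribosomal protein genes set equal 2 did (Mcm5 and Orc1), against 0.237%. Under the latter scaling 9 of 10 members passed 4-fold, and Orc5 was at 1.78. Ratios at or above that of Orc1 were listed for 23 loci (0.163%), and at or above that of Orc5, the lowest member, for 566 loci (4.01%). The members were picked with results of these libraries known, so these shares are descriptions.

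**Figure D1:**
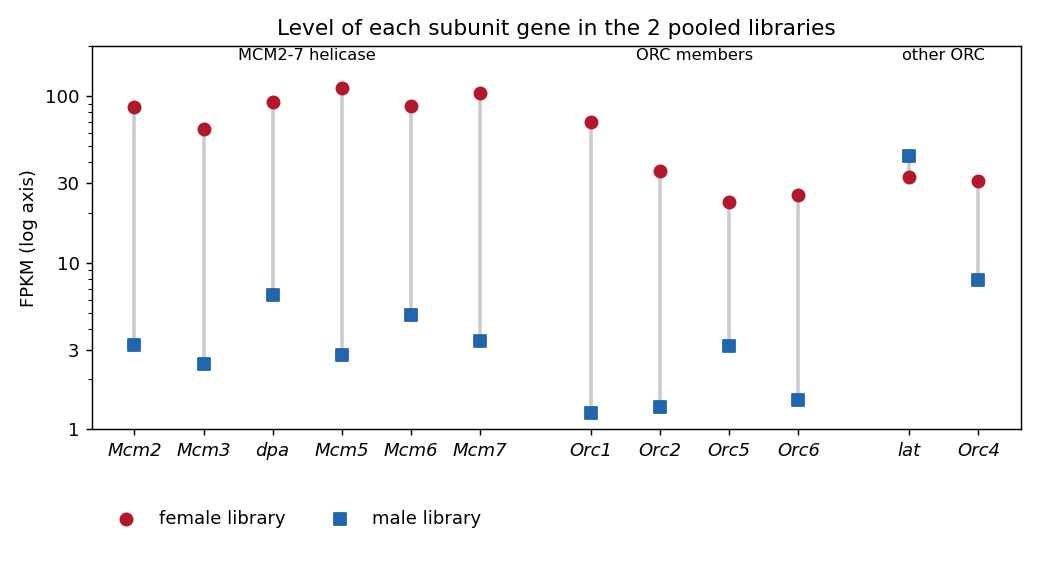
FPKM on a log axis of each MCM gene, each ORC member and the other ORC genes, lat and Orc4, in the female (circles) and male (squares) library, 1 library each. Every member lies between 23.3 and 112 FPKM in the female library and between 1.25 and 6.44 FPKM in the male library, while lat has 32.9 FPKM in females and 43.9 FPKM in males, an order that turns with equal sums.

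The balance of sex differences over all loci depended on how the libraries were scaled. Loci higher in females made up 34.6% of the 2-fold calls on the values as deposited, 50.3% with the sums of both libraries made equal and 12.9% with the median of 88 cytoplasmic ribosomal protein genes set equal. The median of all loci moved with the scaling from −0.58 to −0.09 and −1.28. Each scaling multiplies every male value by the same factor, so the members and all loci shift nearly alike by construction. The members' median therefore stayed at a similar distance above that of all loci. In log2 units it was 4.67 higher as deposited, 4.53 with equal sums and 4.69 with ribosomal protein genes equal. All 10 members stayed above 2-fold in the female direction under each of these scalings.

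The 6 MCM genes had similar levels within the female library. Mcm5 was highest at 112 FPKM in the female library and had 2.78 FPKM in the male library, a log2 ratio of 4.90 and 40.2-fold without the pseudocount. In flies Mcm5 is also known for a role in meiotic recombination. Mcm7 had 104 FPKM in females and 3.39 FPKM in males, a log2 ratio of 4.57. Mcm2, whose protein also binds histones, had 86.3 and 3.23 FPKM and a log2 ratio of 4.37. Mcm3 was the lowest MCM gene in both libraries, at 63.5 and 2.48 FPKM, with a log2 ratio of 4.21. The male values of these genes were therefore between 2.49% and 3.90% of the female ones. Eggshell genes, given below, were also listed in the male library, and the source of such low male values was not tested.

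The other MCM genes, dpa and Mcm6, were the highest of the members in the male library. The level of dpa was 92.5 FPKM in females and 6.44 FPKM in males, a log2 ratio of 3.65 and 14.4-fold without the pseudocount. Mcm6, in which female-sterile mutations cause thin eggshells, had 87.1 and 4.85 FPKM, a log2 ratio of 3.91 and 17.9-fold without the pseudocount. Their male levels were 6.95% and 5.57% of the female ones. The highest MCM level was 1.76 times the lowest in the female library and 2.60 times in the male library. Summed over the MCM genes, FPKM came to 545 in the female and 23.2 in the male library, or 814 and 24.3 per 1e6 of all FPKM in each library.

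The ORC members had a lower median than the MCM genes in both libraries, 30.6 against 89.8 FPKM in females and 1.43 against 3.31 FPKM in males. The highest ORC level was 3.02 times the lowest in females and 2.52 times in males. Orc1, which encodes an ATPase subunit whose protein is degraded in each cell cycle, had 70.2 FPKM in females and 1.25 FPKM in males. Its log2 ratio of 4.98, 56.2-fold without the pseudocount, was the highest of all members, and its male level was the lowest. Orc2, known from female-sterile alleles that impair chorion gene amplification, had 35.7 and 1.36 FPKM and a log2 ratio of 3.96. Orc6, which binds DNA and in flies also acts in cytokinesis, had 25.5 and 1.5 FPKM and a log2 ratio of 3.41. Orc5, another ATPase-family subunit, had 23.3 and 3.15 FPKM and a log2 ratio of 2.55, the lowest of the members. Apart from Orc1, every ORC member lay below every MCM gene in the female library.

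The order of the genes was not the same in the libraries. In the female library it ran Mcm5, Mcm7, dpa, Mcm6, Mcm2, Orc1, Mcm3, Orc2, Orc6 and Orc5, and in the male library dpa, Mcm6, Mcm7, Mcm2, Orc5, Mcm5, Mcm3, Orc6, Orc2 and Orc1. Mcm5 thus went from the highest of the members to place 6, Orc1 from place 6 to place 10 and Orc5 from place 10 to place 5. Spearman's rho between the libraries was 0.53 over the 10 genes, given as a description since all values come from the same pair of libraries. Without replicates it cannot be said which neighbours in either order differ beyond their spread. Among all loci tested, the female levels of the MCM genes lay above 87.1% to 93.4% of loci and those of Orc2, Orc5 and Orc6 above 64.2% to 74.5%. The male levels of all members lay low, above 5.39% (Orc1) to 30.5% (dpa) of loci.

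**Figure D2:**
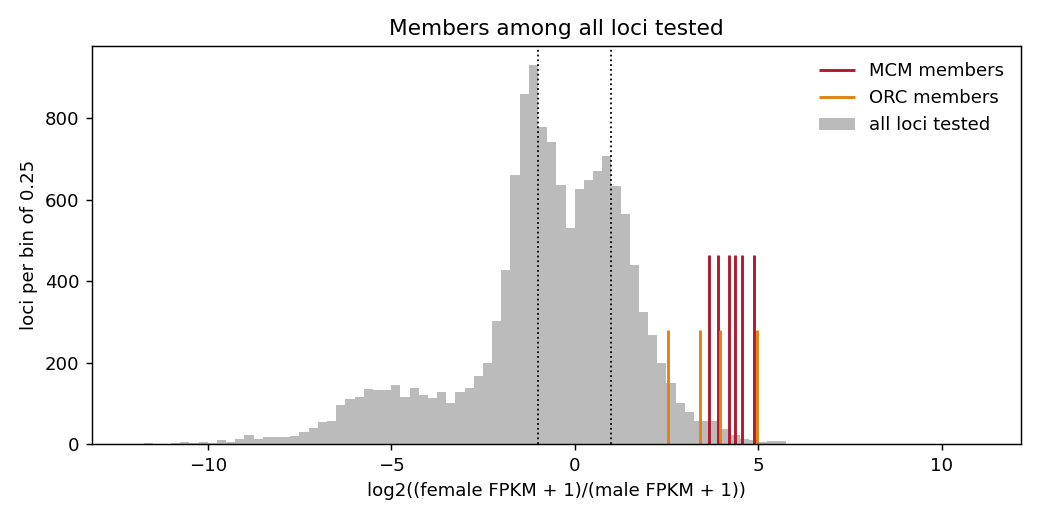
Number of loci by log2 ratio of female to male FPKM, in bins of 0.25, for all 14108 loci tested, with a line at the ratio of each member and dotted lines at 2-fold. The 10 members lie between 2.55 and 4.98 in the right tail, while the median of all loci is −0.58.

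Depth could only be estimated, since the table holds no counts. A common step in the low values of long single-transcript loci corresponded to a divisor of 77.5 in the female and 80.6 in the male library, in units of 1e6 fragments. The step was loosely determined: 56.1% of 383 checked female values and 43.5% of 69 male values came within 0.15 of a multiple of the step, against 30% expected of values spread evenly. On this estimate the members rested on 1741 (Orc6) to 20430 (Mcm5) fragments in the female library and on 106 (Orc6) to 1408 (dpa) in the male library. For the smallest number, that of Orc6 in males, an exact Poisson 95% interval would be 1.23 to 1.81 FPKM, and for Orc1 in males 1.11 to 1.40 FPKM. These intervals cover counting error only and fall far short of the lowest female level of 23.3 FPKM.

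The other ORC subunits did not share the members' ratios. Orc4 had 30.8 FPKM in females and 7.84 FPKM in males, a log2 ratio of 1.85, which was 0.98 with ribosomal protein genes set equal. The gene lat, first known as latheo from a learning mutant, had 32.9 and 43.9 FPKM and a log2 ratio of −0.41, which became 0.09 with equal sums and −1.34 with ribosomal protein genes set equal. In the female library both genes lay within the range of the ORC members, so the difference from the ORC members lies in their male levels. Both lay below every MCM gene in females, the lowest of which had 63.5 FPKM. In the male library both lay above all 10 members, the highest of which had 6.44 FPKM. The value of lat cannot be assigned to Orc3 alone: CG34315, a gene on the same strand (2R, 9090233 to 9094027), had a model that covered all 3290 exonic nt of lat, and it had no row of its own. In Orc4, 283 exonic nt (15.3%) overlapped CR43257 on the opposite strand, which was listed at 0.986 and 0.276 FPKM. Over all 6 ORC subunits the median log2 ratio was 2.98.

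The members' gene models were simple, which bears on how directly a gene-level FPKM reads as 1 mRNA. Each of the 10 had 1 transcript and no new isoform in the deposited annotation, where 50.3% of the 13111 annotated loci tested had 1 transcript. Coordinates are those of the deposited annotation, with the build named BDGP5 in the submitters' processing notes, counted from 1, and every member is annotated as protein-coding. The MCM genes were alike in length, with 2451 to 2898 exonic nt, of which 2163 (Mcm7) to 2664 (Mcm2) were coding. Exon number was not alike: Mcm6 (X, 6568422 to 6571205, plus strand) had a single exon, Mcm2 (3R, 4090692 to 4093646, plus strand) had 2 and dpa (2R, 3384207 to 3387382, minus strand) had 7. Mcm3 (X, 5217881 to 5220771), Mcm5 (3R, 6614246 to 6616872) and Mcm7 (3L, 8884696 to 8887410), all on the plus strand, had 3, 4 and 5 exons.

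Among the ORC members, Orc1 (2R, 3409942 to 3413221, minus strand) was the longest, with 3152 exonic nt in 3 exons, and Orc6 (2R, 5732963 to 5733990, minus strand) the shortest, with 972 exonic nt in 2 exons. Orc2 (3R, 9790607 to 9792797) had 1995 exonic nt in 4 exons and Orc5 (2L, 13829857 to 13831576) had 1667 exonic nt in 2 exons, both on the plus strand. Introns of the 10 genes were short, from 0 nt in Mcm6 to 373 nt in all for dpa. The X-linked members, Mcm3 and Mcm6, had log2 ratios of 4.21 and 3.91, inside the range of 2.55 to 4.98 of the 8 autosomal ones.

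**Figure D3:**
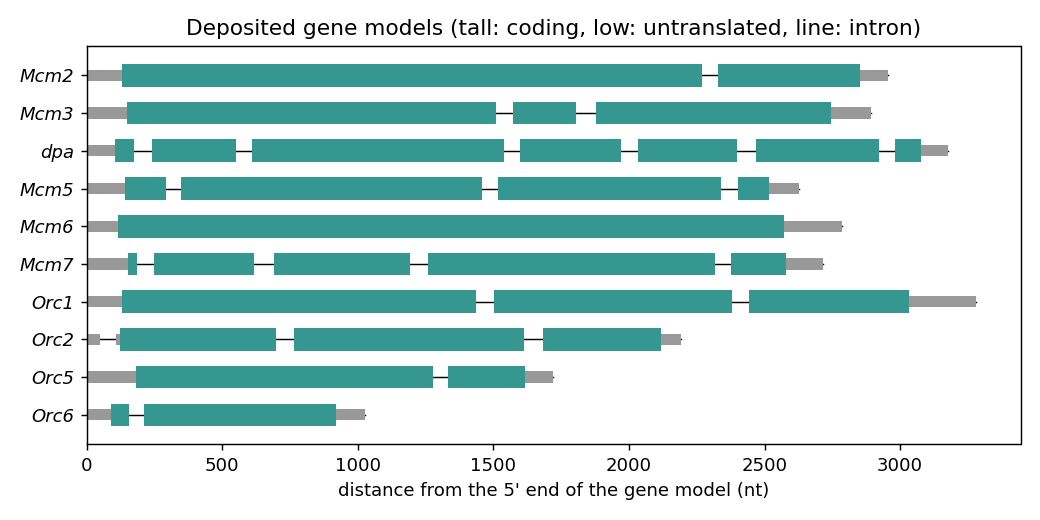
Deposited gene models of the 10 members, drawn from the 5′ end in nt, with coding parts tall, untranslated parts low and introns as lines. The MCM genes have similar exonic lengths, 2451 to 2898 nt, in 1 (Mcm6) to 7 (dpa) exons, while Orc6 is the shortest model at 972 exonic nt.

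Part of 5 members overlapped the end of a gene on the opposite strand, and the use of strand is not given in the sources used here, so fragments from these stretches cannot be assigned. The overlap was 64 nt between Mcm3 and CG3309, 105 nt between Orc1 and CG2144, 15 nt between Orc2 and rdx, 95 nt between Orc5 and DNApol-gamma35 and 55 nt between Orc6 and CG1667. It came to at most 5.70% of a member's exons, in Orc5. For Orc2 the partner was high, at 465 FPKM in females and 33.5 FPKM in males, with a log2 ratio of 3.76 close to that of Orc2, but the overlap was 0.752% of the exons of Orc2. For Orc5 the partner DNApol-gamma35 was at 14.3 and 16.9 FPKM. The part of these overlaps in the members' values was not tested.

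Neighbouring loci were set beside the members to show whether the difference extended along the chromosome. Of the 25 tested loci that overlapped a member or lay next to one, 13 (52.0%) were at least 2-fold higher in females. Another 2 (8.0%) were higher by as much in males, and the median log2 ratio was 1.22. Over all loci the shares were 21.5% and 40.7%. With ribosomal protein genes set equal the counts were 6 (24.0%) and 7 (28.0%), against 8.55% and 57.6% of all loci. Of these 25 loci, the single one above its member was CG9925, head to head with Orc2 at a distance of 715 nt. CG9925 had 48.8 and 1.84 FPKM and a log2 ratio of 4.13. Mcm2 lay head to head with another replication gene, RpA-70, which encodes the large subunit of the single-strand binding protein RPA, with 518 nt between them. RpA-70 was higher than Mcm2 in both libraries, at 163 and 30.9 FPKM, and its log2 ratio was 2.36.

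Mcm5 and Art1, a gene for an arginine methyltransferase, were also head to head, with 297 nt between them, and Art1 had 129 and 18.5 FPKM and a log2 ratio of 2.73. Mcm3 and Rnp4F were head to head with 1121 nt between them, and Rnp4F had 28.0 and 9.67 FPKM and a log2 ratio of 1.44. In all, 4 of the 7 head-to-head neighbours were at least 2-fold higher in females, against 21.5% of all loci, and the other 3 differed by less. With ribosomal protein genes set equal Rnp4F was at 0.56, below 2-fold. The neighbour of dpa at 269 nt, didum, which encodes a myosin V, had 42.0 and 59.3 FPKM and a log2 ratio of −0.49. That ratio became 0.01 with equal sums and −1.42 with ribosomal protein genes set equal. Next to Orc5, Arpc1 lay 108 nt away with 70.9 and 58.7 FPKM. Mcm6 and CG3198 were 406 nt apart, and CG3198 had 21.3 and 20.2 FPKM. On either side of Mcm7, dally (15.8 and 31.9 FPKM) and TrpA1 (0.864 and 1.81 FPKM) had log2 ratios of −0.96 and −0.59. The pseudocount weighs heavily on the low values of TrpA1. The ratio of dally was −0.47 with equal sums and −1.89 with ribosomal protein genes set equal. The members dpa and Orc1 lay 22559 nt apart on 2R, and the genes between them included CG12736, with a log2 ratio of −1.04, and az2, with 2.42.

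**Figure D4:**
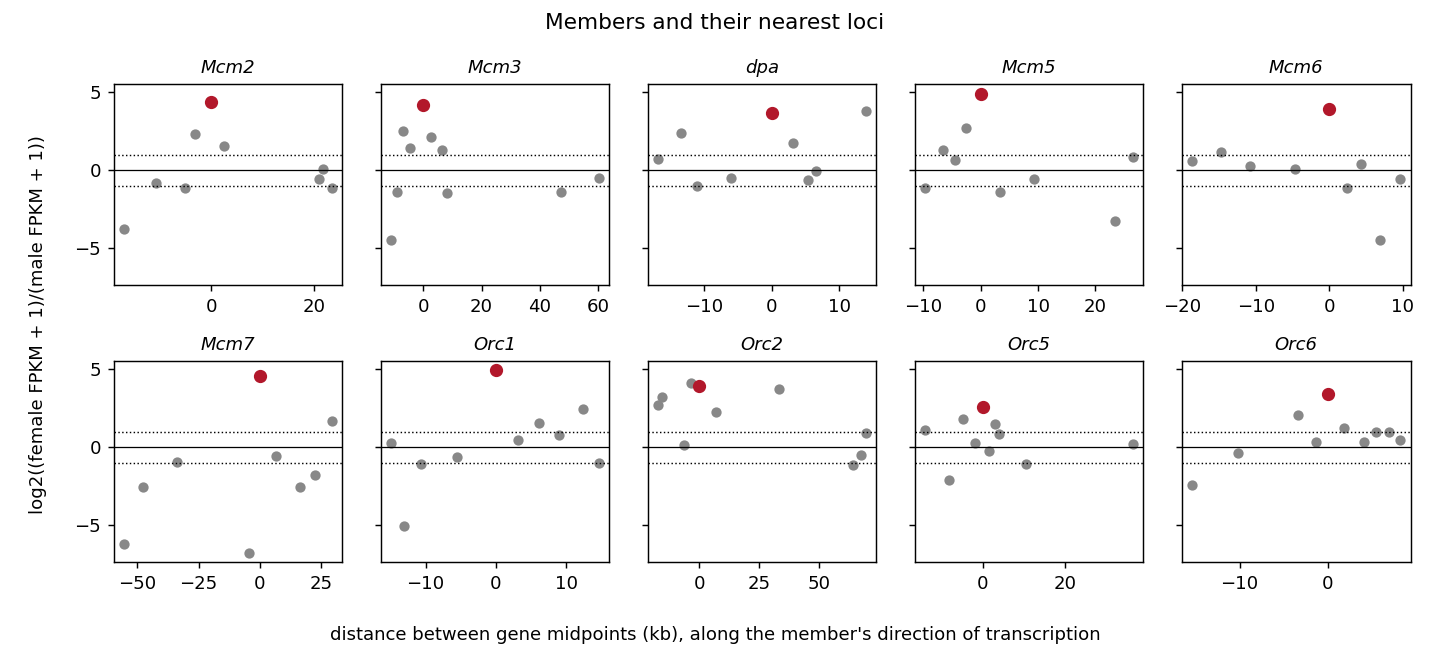
Log2 ratio of female to male FPKM of each member (large points at 0) and of up to 4 tested loci on either side plus overlapping ones, against the distance between gene midpoints in kb along the member's direction of transcription, with dotted lines at 2-fold. Mcm7 (4.57) and Mcm6 (3.91) stand above all the loci drawn around them, as do the other members except dpa and Orc2. A locus drawn near dpa (3.65) is at 3.83, and Orc2 (3.96) has neighbours of similar ratio such as CG9925 (4.13).

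The other replication genes were listed by their step, and most were also higher in females. The loading factors Cdc6 (42.8 and 1.78 FPKM, log2 ratio 3.98) and dup, the gene for Cdt1 (94.4 and 4.12 FPKM, log2 ratio 4.22), had ratios within the range of the MCM genes. The Cdt1 inhibitor geminin had 119 FPKM in females and 18.0 FPKM in males and a lower log2 ratio of 2.66. All 3 were at least 2-fold higher in females, against 21.5% of all loci.

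Of 12 genes of helicase activation, 9 were at least 2-fold higher in females, against 21.5% of all loci, and 3 differed by less. With equal sums 11 of them were, against 31.3% of all loci, and with ribosomal protein genes set equal 7, against 8.55%. The highest were cdc2c, which encodes the S-phase kinase Cdk2 (113 and 4.66 FPKM, log2 ratio 4.34), and RecQ4 (42.9 and 1.23 FPKM, log2 ratio 4.30). The lowest were Psf3 and l(1)G0148. The gene l(1)G0148 encodes the Cdc7 kinase that phosphorylates the MCM ring, and it had 59.0 and 39.2 FPKM and a log2 ratio of 0.58, which was 1.07 with equal sums and −0.35 with ribosomal protein genes set equal.

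The active helicase joins the MCM ring, Cdc45 and the GINS proteins, and its genes are set side by side here, a choice made after their values were seen. CDC45L had 97.6 FPKM in females and 6.06 FPKM in males, a log2 ratio of 3.80 within the MCM range of 3.65 to 4.90. The 4 GINS genes lay below that range, with log2 ratios of 1.40 for Psf1, 0.61 for Psf2, 0.39 for Psf3 and 1.41 for Sld5. Their female levels were 14 to 40.7 FPKM, below every MCM gene, and their male levels 4.69 to 30.8 FPKM, of which those of Psf2 (12.3), Psf3 (30.8) and Sld5 (6.80) were above every MCM gene. With equal sums Psf2 and Psf3 were at 1.08 and 0.88 and the lowest MCM ratio at 4.08. With ribosomal protein genes set equal they were at −0.28 and −0.54, and the lowest MCM ratio at 2.80. No test of this difference was possible with 1 library per sex.

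**Figure D5:**
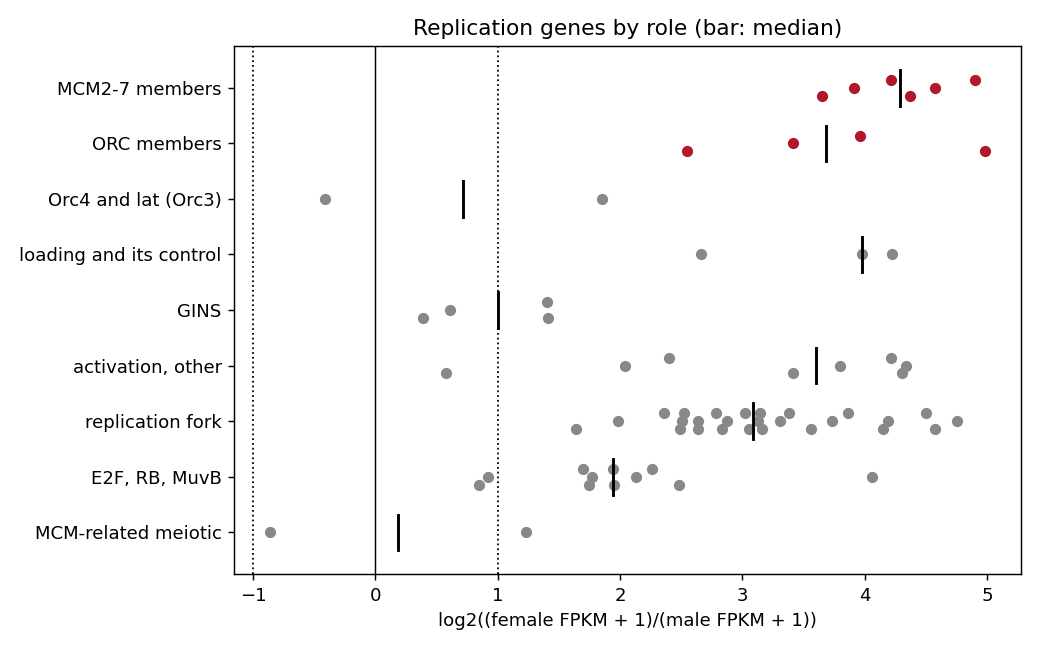
Log2 ratio of female to male FPKM of each replication gene by role, with a bar at each median and dotted lines at 2-fold. The MCM members (median 4.29) and ORC members (median 3.68) lie to the right, the 4 GINS genes (median 1.01) further left, and lat (−0.41, which becomes 0.09 with equal sums) and mei-218 (−0.86) left of 0.

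At the replication fork, all 26 listed genes were at least 2-fold higher in females, against 21.5% of all loci, with a median log2 ratio of 3.09 and a range of 1.64 to 4.75. With ribosomal protein genes set equal 25 of them were, against 8.55% of all loci. The highest were RnrL, the large subunit of ribonucleotide reductase (153 and 4.71 FPKM, log2 ratio 4.75), and mus209, the gene for PCNA (266 and 10.3 FPKM, log2 ratio 4.57). The lowest were Top1, a topoisomerase (104 and 32.8 FPKM, log2 ratio 1.64), and Gnf1, the large subunit of the clamp loader (70.9 and 17.2 FPKM, log2 ratio 1.98). Over the loading, activation and fork lists together, 13 of 41 genes lay within the range of the MCM genes, 28 lay below it and 0 above it. The median of these 41 genes was 3.05, against 4.29 for the MCM genes and 3.68 for the ORC members.

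The members are genes of dividing and endoreplicating cells, and in whole flies fewer such cells and less RNA per cell cannot be told apart. Whether each marker listed for the ovary is particular to it was not tested. Most of these markers were much higher in females. Of 12 female germline markers 10 were at least 2-fold higher there, against 21.5% of all loci. Their summed level was 7109 FPKM in females and 264 FPKM in males, with a median log2 ratio of 4.71. The gene dhd alone had 5171 and 66.0 FPKM, and the other 11 summed to 1938 and 198 FPKM, with a median of 4.60. The exceptions were grk and orb, with log2 ratios of 0.38 and 0.24, which were −0.53 and −0.70 with ribosomal protein genes set equal. Under that scaling 9 of the 12 passed 2-fold, against 8.55% of all loci, and BicD was at 0.70. All 12 follicle cell and eggshell markers were at least 2-fold higher in females, with 7605 and 712 FPKM in sum and a median of 3.74. In the male library these 12 markers were listed at 1.40 to 266 FPKM. The source of these male values, and of the low male values of the members, was not tested. Of 14 genes listed as testis markers 12 were at least 2-fold higher in males, against 40.7% of all loci. Their sums were 237 FPKM in females and 2591 FPKM in males. The exceptions, CycB3 (150 and 10.3 FPKM) and twe (67.5 and 27.2 FPKM), are also used in the ovary and made up most of the female sum. With equal sums 11 testis markers were at least 2-fold higher in males, against 30.9% of all loci. No marker of these 3 lists was listed at 0. The part of ovary and testis content in the members' ratios was not tested.

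The genes most like the members were found by the distance between pairs of values, log2(FPKM + 1) in both libraries, from the members' medians of 6.30 and 1.98. The 5 nearest annotated genes were CBP, Apc7, piwi, ovo and His2A:CG33865. CBP had 74.7 FPKM in females and 3.17 FPKM in males, and Apc7 had 83.5 and 3.03 FPKM. For piwi the values were 75.8 and 2.58 FPKM and for ovo 86.1 and 3.41 FPKM. The histone gene His2A:CG33865 had 63.3 and 3.03 FPKM, but it is 1 of many near-identical copies and its single value is uncertain. Likeness here rests on 2 libraries only.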

How the data were processed

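Whole-fly polyadenylated RNA of 1 female and 1 male pool was measured by RNA-seq. The authors deposited 1 table of FPKM and 1 annotation, per the file contents. TopHat2 2.0.8, Cufflinks 2.0.2 and the build BDGP5 are named in the submitters' processing notes, without their roles. Quantification settings, the use of strand and filters are not given in the sources used here. FPKM sums were 669223 in the female and 951735 in the male library.

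FPKM was used as deposited. Log2 ratios had a pseudocount of 1 FPKM, and loci that reached 1 FPKM in either library were tested against a 2-fold threshold. No p-value was computed, since each sex had 1 library. Calling was tested on simulated data with little noise and large changes put in. This checks the code only and says nothing of the spread between real libraries. Depth was estimated from the step between low values of loci of at least 1000 exonic nt. Of the 10 member identifiers, 8 were in the current name table, and symbols follow the deposited annotation. Members and gene lists were chosen with earlier results of these data known. Named genes were all members, lat and Orc4, the 2 highest and 2 lowest ratios of each other list, neighbours, and the 5 genes most like the members. Of the 2 ovary and 1 testis marker lists counts are given. Sequences were not used here. Alternatives were other pseudocounts, filters, scalings and thresholds. Python 3.11.15, numpy 2.4.6, pandas 2.3.3, scipy 1.17.1 and matplotlib 3.10.9 were used.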

Additional observations from a re-analysis of the deposited data

How the results depend on the processing

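Under each of the alternative pseudocounts, filters, scalings and loci, all 10 members remained at least 2-fold higher in females and 0 in males. The filters could not change a member's value, since all members are annotated and passed each filter. Smaller pseudocounts can only raise these ratios, so of these alternatives only the scalings could have lowered them. All 10 members passed a 4-fold threshold on the values as deposited. With ribosomal protein genes set equal, Orc5 no longer passed 4-fold. The 50 member ratios recomputed with other pseudocounts and scalings ran from 1.78 (Orc5, ribosomal protein genes set equal) to 5.80 (Orc1, pseudocount 0.01). Medians ran from 3.54 to 4.70 for the MCM genes and from 3.06 to 4.39 for the ORC members. Counts over all loci moved more. With ribosomal protein genes set equal, 1301 loci were at least 2-fold higher in females and 8770 in males. At a 4-fold threshold the counts were 1072 and 2866, fewer by construction. Requiring 1 FPKM in both libraries left 2382 loci (24.3% of those tested) higher in males. Loci higher in females then made up 53.7% of calls, against 34.6%, and the median log2 ratio of all loci went from −0.58 to 0.17. By construction this filter removes 3919 loci under 1 FPKM in females and 384 under it in males. No paired analysis was possible because each sex had 1 library, and no replicate could be left out. FPKM without counts limits the precision of low male values, which rests on the estimated fragment numbers.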

Other observations

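Regulators of replication genes had a lower median ratio than the members' 4.09. Of 11 genes for E2F, RB and MuvB proteins and the factor Dref, 9 were at least 2-fold higher in females, against 21.5% of all loci, and 2 differed by less, with a median log2 ratio of 1.94. The highest were Rbf2, a retinoblastoma-family protein (32.6 and 1.01 FPKM, log2 ratio 4.06), and mip120 (29.5 and 4.46 FPKM, log2 ratio 2.48). The lowest were mip40 (37.3 and 20.3 FPKM, log2 ratio 0.85) and Myb (62.8 and 32.8 FPKM, log2 ratio 0.92), which were 1.33 and 1.41 with equal sums and −0.07 and −0.01 with ribosomal protein genes set equal. With equal sums all 11 were at least 2-fold higher in females, against 31.3% of all loci, and with ribosomal protein genes set equal 6 of the 11 were, against 8.55%.

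Genes for MCM-related proteins of meiotic recombination did not have the members' ratios. The gene rec, which encodes the fly Mcm8, had 11.9 FPKM in females and 4.49 FPKM in males, a log2 ratio of 1.23. That ratio was 1.64 with equal sums and 0.42 with ribosomal protein genes set equal. The gene mei-218 had 20.2 and 37.5 FPKM and a log2 ratio of −0.86. It was at −0.37 with equal sums and at −1.79 with ribosomal protein genes set equal. Its model shares 79.2% of its exonic length with mei-217, a gene on the same strand that had no row in the table, so the value of mei-218 cannot be assigned to it alone.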
